A study of Mus musculus with 4 samples.

Results

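The 6 genes described here belong to nitric oxide and cGMP signalling: Nos1, Nos1ap, Prkg1, Prkg2, Pde2a and Pde9a, out of 31053 genes in the count matrices. They were grouped around Nos1 because of a comparison within the excitatory subtype L6-Syt6. It set neurons with more counts of the viral barcode against those with none, and Nos1 had the highest log2 fold change. Values of that comparison, and levels across the subtypes that the study had clustered on these same cells, are therefore given as descriptions without a test.

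The cells came from the ventromedial prefrontal cortex (prelimbic and infralimbic areas) of male C57BL/6 mice that were 8 weeks old when 5 retrograde viruses, rAAV2-retro carrying EGFP and a short barcode, were injected into 5 targets of this cortex. The targets were the lateral hypothalamus (LH), the basolateral nucleus of the amygdala (BLA), the mediodorsal nucleus of the thalamus (MD), the dorsal and medial part of the striatum (DMS) and the agranular insular cortex (AI), and the tissue was taken 6 weeks later. Every animal carried all 5 viruses, and no uninjected animal was among the samples. Unsorted cells gave 3 libraries, 1 mouse each (replicates 1, 2 and 3). Cells sorted for EGFP gave 1 more, which pools 3 further mice. The comparisons used 9368 excitatory neurons in the 7 subtypes named by the study, and 1283 inhibitory cells chosen here by 4 or more UMIs (unique molecular identifiers, each 1 captured transcript) of Gad1 plus Gad2 and at most 3 of Slc17a7.

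Nos1 encodes the neuronal nitric oxide synthase, an enzyme that calcium and calmodulin switch on near NMDA receptors. Nitric oxide diffuses to soluble guanylyl cyclase, which makes cGMP. cGMP activates protein kinases and opens cyclic nucleotide-gated channels, and phosphodiesterases break it down. In cortex, the strongest nitric oxide synthase staining is a classical mark of a sparse class of inhibitory neurons with long axons that also make somatostatin and neuropeptide Y, while many other neurons hold lower amounts.

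In the GRCm38 annotation (GENCODE M21) all 6 are protein-coding genes. Nos1 (ENSMUSG00000029361) lies on chromosome 5 at 117781032 to 117958840, plus strand. Nos1ap (ENSMUSG00000038473), an adaptor that binds the synthase and can draw it away from the postsynaptic density, lies on chromosome 1 at 170302668 to 170589861, minus strand. The cGMP-dependent kinases are Prkg1 (ENSMUSG00000052920, chromosome 19, 30564489 to 31765033, minus strand) and Prkg2 (ENSMUSG00000029334, chromosome 5, 98929773 to 99037351, minus strand). The phosphodiesterases are Pde2a (ENSMUSG00000110195, chromosome 7, 101421691 to 101512827, plus strand), which cGMP activates and which cleaves both cAMP and cGMP, and Pde9a (ENSMUSG00000041119, chromosome 17, 31386210 to 31476310, plus strand), which is specific for cGMP. Nos1ap and Pde2a each share exon bases on their strand with 1 other gene model (Gm7694 and Gm45837), so their counts are less certain.

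Levels are in CPM, the usual scaling of a gene's count to the total UMIs of the summed cells, and are compared only within a gene because 3' counts do not set different genes on 1 scale. The unsorted libraries held 83039497 to 87809114 UMIs and the sorted library 54728191. The median excitatory neuron had 21343.5 to 23213 UMIs in unsorted libraries, against 31669 after sorting. Between 5 and 30 cell barcodes were shared by any pair of libraries. In each subtype the 3 excitatory markers (Slc17a7, Camk2a, Neurod6) summed to 1220 to 2050 CPM and the 3 inhibitory markers (Gad1, Gad2, Slc32a1) to 1.87 to 15.3 CPM.

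Nos1 was low in the subtype whose barcode comparison brought it forward. In L6-Syt6 it measured 6.12, 6.57 and 6.99 CPM in unsorted replicates 1, 2 and 3, a mean of 6.56 ± 0.435 (SD, n = 3). In L2/3-Calb1, the highest subtype, it measured 95.1, 84.6 and 88.1 CPM, 13.6 times the L6-Syt6 mean. L6-Npy (60.4 ± 5.56) and L5-S100b (60.2 ± 1.87) came next and overlapped each other. L5-Bcl6 (38.1 ± 6.46) and L2/3-Rorb (33.2 ± 3.13) overlapped as well, and so did L5-Htr2c (8.26 ± 2.62) and L6-Syt6 at the bottom. With every neuron thinned to 10000 UMIs the L6-Syt6 level was again 6.56 ± 0.429 CPM. The 7 subtypes thus fell into a top subtype and 3 pairs whose libraries did not overlap with those of the neighbouring pair.

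**Figure D1:**
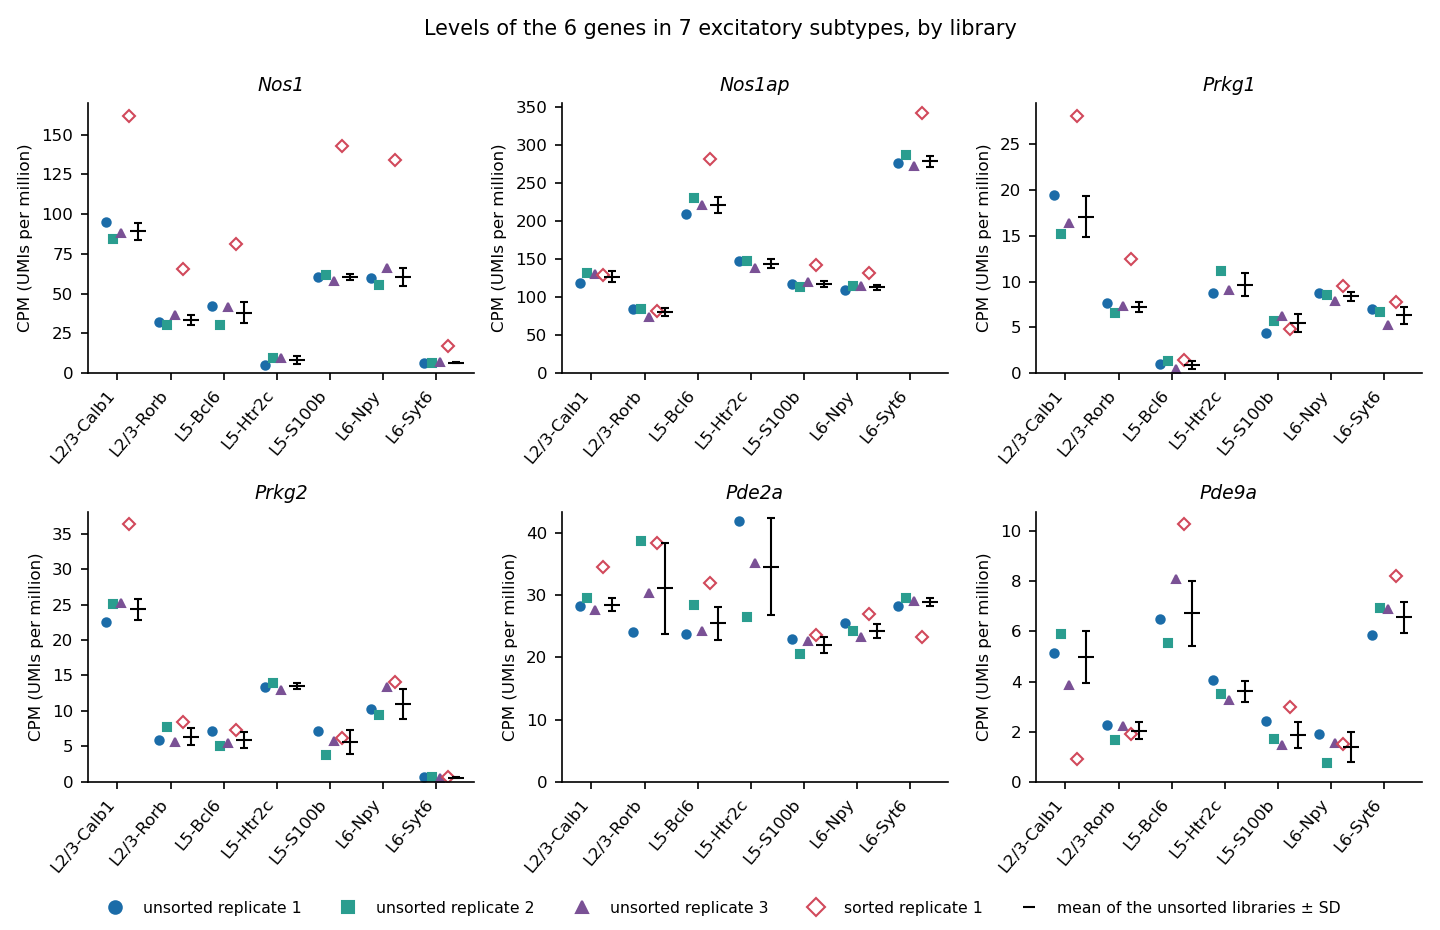
CPM of each gene (vertical axis, own scale per panel) in the 7 excitatory subtypes (horizontal axis), with 1 symbol per library and the mean ± SD of the 3 unsorted libraries in black; L5-Htr2c has under 10 sorted cells and no sorted symbol. Nos1 is at its lowest in L6-Syt6 (6.56 CPM), where Nos1ap is at its highest (279 CPM), and the open sorted symbol lies above the unsorted ones for Nos1 in each of the 6 subtypes plotted.

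Nos1ap had its highest level where Nos1 had its lowest. It measured 277, 287 and 273 CPM in L6-Syt6, against 83.9, 83.8 and 74.1 CPM in L2/3-Rorb, a 3.46-fold range of the means. L5-Bcl6 was second (221 ± 10.7 CPM) and L5-Htr2c came next (144 ± 5.91). L2/3-Calb1, L5-S100b and L6-Npy lay between 109 and 132 CPM and overlapped. Across the 21 sums of 7 subtypes in 3 libraries, log2(CPM + 1) of Nos1ap and Nos1 had a Pearson r of -0.54. These sums share libraries and subtypes, so the correlation is a description of 7 profiles.

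The kinase transcripts had the widest ranges of the group. Prkg2, the membrane-anchored kinase, measured 22.6, 25.1 and 25.2 CPM in L2/3-Calb1 and 0.615, 0.611 and 0.515 CPM in L6-Syt6, 41.9 times less by the means. Its other subtypes ran from 5.59 ± 1.72 (L5-S100b) to 13.5 ± 0.457 CPM (L5-Htr2c). Prkg1, the cytosolic kinase known from smooth muscle and neurons, was also highest in L2/3-Calb1, at 19.5, 15.2 and 16.4 CPM. Its lowest subtype was L5-Bcl6, at 1.03, 1.28 and 0.451 CPM, from 7 UMIs in all. Both kinases therefore shared their top subtype with Nos1 but not their lowest subtype with each other.

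The phosphodiesterase transcripts differed in how even they were. Pde2a ranged only 1.57-fold, from 22.0 ± 1.27 CPM in L5-S100b to 34.6 ± 7.73 in L5-Htr2c, and 5 of its 6 neighbouring pairs overlapped. Pde9a measured 6.51, 5.53 and 8.11 CPM in L5-Bcl6 and 5.86, 6.93 and 6.90 CPM in L6-Syt6. It was lowest in L6-Npy (1.89, 0.738 and 1.54 CPM), which overlapped with L5-S100b. The subtypes richest in Pde9a were also the richest in Nos1ap, and the r of these genes over the 21 sums was 0.78.

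The genes whose profile over the 21 sums was most like that of Nos1, among 10492 genes with a mean of at least 5 CPM, were Man1c1 (r = 0.955), Tle3 (0.952), Gpr22 (0.949), Rasa3 (0.944) and Palmd (0.942). No member of the group came close: the highest r with Nos1 was that of Prkg2 (0.56), and Pde2a stood at -0.54. The gene most like each other member was Arpc1a for Nos1ap (0.958), Kcnc1 for Prkg1 (0.934), Rasgrf2 for Prkg2 (0.966), Glod4 for Pde2a (0.785) and Haghl for Pde9a (0.86).

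Of the cyclase that nitric oxide acts on, the subunit transcripts also differed by subtype. Gucy1a1, the alpha1 subunit, was highest in L2/3-Calb1 (177 ± 15.2 CPM) and lowest in L6-Syt6 (9.53 ± 0.789 CPM), the same ends as for Nos1. Gucy1b1, the beta1 subunit, measured 301 ± 6.1 and 94.9 ± 1.7 CPM in these subtypes. Gucy1a2, the alpha2 subunit, varied less, from 9.44 ± 1.5 CPM in L5-Htr2c to a library maximum of 23.1 in L2/3-Calb1.

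Nos1 was higher in the sorted library than in each unsorted library in all 6 subtypes with at least 10 sorted cells. Its fold over the unsorted mean was 1.82 in L2/3-Calb1, 1.97 in L2/3-Rorb, 2.14 in L5-Bcl6, 2.22 in L6-Npy, 2.38 in L5-S100b and 2.59 in L6-Syt6, where the sorted library measured 17.0 CPM. In L6-Syt6 and in L5-S100b, Nos1 was 1 of the 2 genes with the largest fold among 10093 and 10258 genes at 5 CPM or more. Genes that were 2-fold or more higher in the sorted library made up 0.129% and 0.146% of these, against 0.399% in L6-Npy, 0.52% in L2/3-Rorb, 0.787% in L5-Bcl6 and 2.59% in L2/3-Calb1. In L2/3-Calb1, with 40 sorted neurons, 571 of 10391 genes had a fold at least as large. The other members moved less in L6-Syt6: the sorted fold was 1.23 for Nos1ap, 1.24 for Prkg1, 1.09 for Prkg2, 0.805 for Pde2a and 1.25 for Pde9a. The sorted group has 1 library, so sorting, depth and animals cannot be told apart, and no test was made.

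The comparison that chose these genes set L6-Syt6 neurons with 5 or more barcode UMIs (barcode-high) against those with none (barcode-zero). The barcode count is the deposited feature taken to sum all 5 viruses, so it marks uptake from any target. A count of 0 does not show that a neuron took up no virus. The library sorted for EGFP also held 94 barcode-zero L6-Syt6 neurons. Nos1 measured 8.43 against 4.79 CPM in unsorted replicate 1, 9.91 against 4.39 in replicate 2, 11.1 against 4.60 in replicate 3, and 20.0 against 10.4 in the sorted library. It was higher in barcode-high neurons in 4 of 4 libraries, by 1.05 ± 0.21 on the log2 scale (SD, n = 4). The groups did not overlap among the unsorted libraries, while the sorted barcode-zero value (10.4) lay among the unsorted barcode-high values. The fitted log2 fold change was 1.11 (edgeR, SE 0.112).

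Nos1 was higher at each step of barcode count in L6-Syt6. Over the unsorted libraries it was 4.59 ± 0.203 CPM at 0 barcode UMIs, 6.60 ± 0.805 at 1 to 4, 8.46 ± 1.65 at 5 to 19 and 13.4 ± 1.57 at 20 or more (SD, n = 3). The sorted library gave 10.4, 12.4, 19.7 and 20.6 CPM over the same steps. The order held in each of the 4 libraries. Neurons just outside the limit (1 to 4 UMIs) and just inside it (5 to 19 UMIs) lay between the extremes. Only those with 1 to 4 UMIs were outside the comparison that chose the gene. A rise between the ends was therefore set by that choice.

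**Figure D2:**
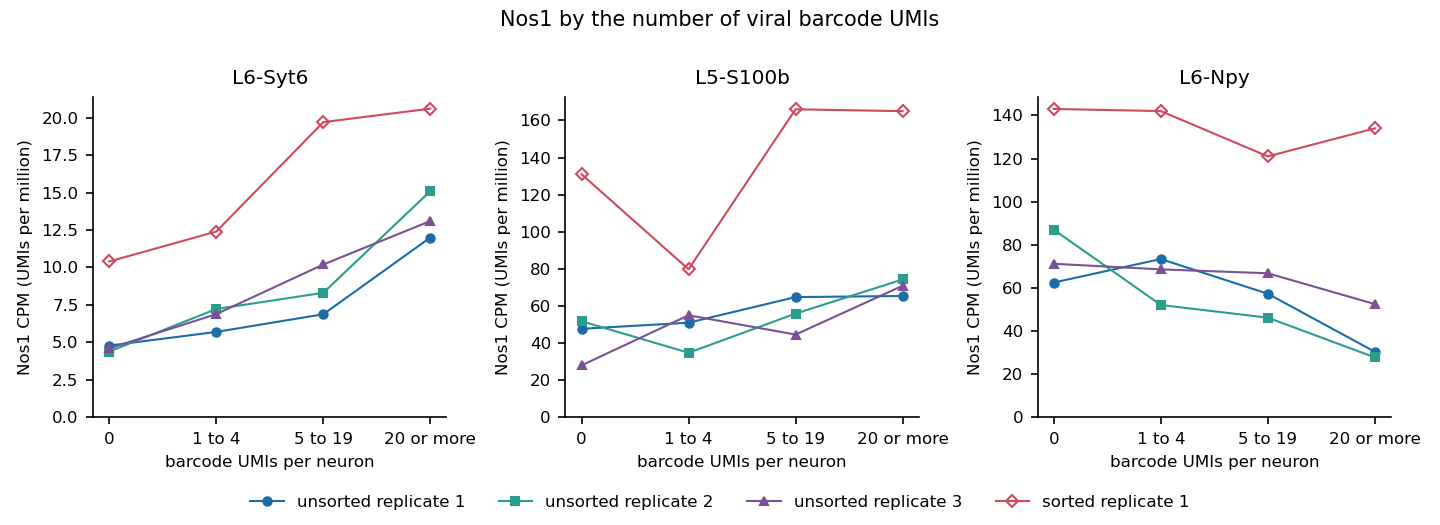
Nos1 CPM (vertical axis, own scale per panel) by barcode UMIs per neuron (horizontal axis) in 3 subtypes, 1 line per library. In L6-Syt6 each line is higher at every step, from 4.39 to 10.4 CPM at 0 barcode UMIs to 12.0 to 20.6 CPM at 20 or more, while in L6-Npy the 3 unsorted lines end lower (27.8 to 52.5 CPM) than they start (62.5 to 87.0 CPM).

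The share of L6-Syt6 neurons with a Nos1 UMI followed the level. In the unsorted libraries it was 7.34%, 7.96% and 8.36% of barcode-zero neurons and 16.0%, 17.3% and 18.4% of barcode-high neurons. Barcode-high neurons were deeper, with medians of 24582 to 25878.5 UMIs against 21684 to 23159 in these libraries. With every neuron thinned to 10000 UMIs, which left out 67 barcode-zero and 7 barcode-high neurons, the shares were 3.98%, 4.32% and 5.01% against 8.67%, 7.25% and 9.36%. In microglia, which should lack the gene and had a median of 4176 UMIs, 0.33% ± 0.119 of cells had a Nos1 UMI at 2000 UMIs per cell, against 1.07% ± 0.256 of barcode-zero and 2.12% ± 0.704 of barcode-high L6-Syt6 neurons at the same depth (SD, n = 3). Both groups thus lay above the share in microglia.

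The other members differed less between these L6-Syt6 groups. The fitted log2 fold change was 0.05 (SE 0.0481) for Nos1ap, 0.05 (SE 0.11) for Prkg1, -0.09 (SE 0.0617) for Pde2a and 0.07 (SE 0.108) for Pde9a. Prkg2 had too few UMIs for the fit, with 0 to 11 per library and group. Among all genes of this comparison 1.67% were called, which throughout asks for a Benjamini-Hochberg adjusted p below 0.05 and a change of 0.5 or more on the log2 scale in either direction. Of 40 measured genes of a 57-gene list of nitric oxide and cGMP signalling that excludes the members, Arg2, a mitochondrial arginase that competes for the synthase's substrate, had a log2 fold change of 0.80 and Gucy1a1 one of -0.88. Of the lists of other cell type markers, the mural list did not overlap between these groups. It summed to 6.25 to 11.3 CPM in barcode-high and 24.0 to 35.3 in barcode-zero neurons, with 0 of 5 higher in barcode-high, almost wholly through Rgs5. The layer 6b list overlapped (143 to 168 against 98.1 to 160 CPM) and its genes went different ways: Nr4a2 was higher in barcode-high neurons in 4 of 4 libraries (113 to 135 against 69.8 to 93.8 CPM), Ctgf in 1 of 4, and Cplx3 (2.34 to 4.8 against 6.69 to 14.3) and Nxph4 (1.53 to 2.44 against 2.97 to 4.9) in 0 of 4. The long-range interneuron markers (Sst, Npy, Chodl, Tacr1) summed to 0.892 to 6.0 against 4.46 to 11.5 CPM, with 1 of 4 higher. Their part in the Nos1 difference was not tested. The 3 inhibitory markers summed to at most 5.11 CPM in either group. Without neurons holding a Gad1 or Gad2 UMI the Nos1 difference was 1.06. That value repeats the comparison that chose the gene and is a description without a test.

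In L5-S100b, whose neurons the choice of genes did not use, Nos1 was also higher in barcode-high neurons. It measured 65.2 against 47.7 CPM in unsorted replicate 1, 67.7 against 51.8 in replicate 2, 62.9 against 28.0 in replicate 3 and 166 against 131 in the sorted library. The 4 libraries agreed in direction, and replicate 3 stood apart through its low barcode-zero value. The fitted difference was 0.55 on the log2 scale (SE 0.111, adjusted p = 0.00134, edgeR's quasi-likelihood test with the library as a block). Nos1 was the only one of 5 members tested that was called, in a comparison where 2.7% of 11477 genes were.

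The size of the L5-S100b difference sat close to the limit of the rule. Without unsorted replicate 3 it was 0.42 (adjusted p = 0.0161), with 1 barcode UMI or more as the limit 0.43 (adjusted p = 0.0242), and both fall under the 0.5 required. Without the library as a block it was 0.58 (adjusted p = 0.768), and with neurons thinned to 10000 UMIs 0.95 (adjusted p = 0.000426). Thinning left out 23, 7 and 13 barcode-zero and 6, 0 and 1 barcode-high neurons in unsorted replicates 1, 2 and 3. In the sorted library it left out 1 of each group. Barcode-high L5-S100b neurons were deeper, with medians of 25553.5 to 34389 UMIs against 19306.5 to 28185. The share of neurons with a Nos1 UMI after thinning was 38.3%, 36.8% and 33.2% of barcode-high neurons in the unsorted libraries, against 35.3%, 19.4% and 22.0% of barcode-zero neurons. The long-range interneuron markers summed to 2.62 to 9.05 CPM in barcode-high and 8.34 to 31.3 CPM in barcode-zero neurons (0 of 4 higher), and their part in the result was not tested.

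In L5-S100b Nos1 was higher at every barcode step in only 1 of 4 libraries, unsorted replicate 1. The unsorted means were 42.5 ± 12.7 CPM at 0 UMIs, 46.9 ± 10.7 at 1 to 4, 55.1 ± 10.1 at 5 to 19 and 70.2 ± 4.46 at 20 or more. Only at 20 or more did each unsorted library (65.4, 74.3 and 70.9 CPM) lie above all 3 barcode-zero values. The sorted library went from 131 CPM at 0 to 79.8 at 1 to 4 and 165 at 20 or more, with 24 neurons at 0.

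The other members of L5-S100b were not called. Nos1ap was higher in 4 of 4 libraries but by less, 122 against 103, 115 against 97.2, 120 against 114 and 148 against 126 CPM (log2 fold change 0.22, SE 0.0805, edgeR adjusted p = 0.109). Pde2a was lower in 4 of 4 libraries (-0.27, SE 0.164, edgeR adjusted p = 0.425). Prkg1 (-0.34, SE 0.351) and Prkg2 (-0.21, SE 0.349) had wide errors, with single libraries holding as few as 3 and 1 UMIs. Pde9a was too low to be tested. On the wider list, 2 of 35 genes tested were called, beside 1.1% of all genes called higher and 1.6% called lower: Pde1c, a calmodulin-stimulated phosphodiesterase, rose by a log2 fold change of 1.31 (adjusted p = 0.00205) and Npr3, the natriuretic peptide clearance receptor, fell by 1.94 (adjusted p = 0.000175).

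In L6-Npy the Nos1 difference had the opposite sign. It measured 50.8 against 62.5 CPM in unsorted replicate 1, 41.5 against 87.0 in replicate 2, 63.4 against 71.2 in replicate 3 and 123 against 143 in the sorted library, lower in barcode-high neurons in 4 of 4. The log2 fold change of -0.38 (SE 0.106, edgeR adjusted p = 0.0598) was not called. By edgeR or DESeq2 0 of 5 members tested were called, beside 0.801% of all genes called by edgeR. An unadjusted edgeR p under 0.05 was reached by 1 of the 5, and by 1096 of 10365 genes. Without the sorted library the Nos1 change was -0.51 (adjusted p = 0.0327) and with thinning to 10000 UMIs -0.55 (adjusted p = 0.0393), both called. Without unsorted replicate 2 it was -0.20 (adjusted p = 0.62). Over the barcode steps the unsorted means went from 73.6 ± 12.5 CPM at 0 UMIs to 64.7 ± 11.2, 56.8 ± 10.3 and 36.9 ± 13.6 at 20 or more, while the sorted library gave 134 CPM at 20 or more from 15 neurons.

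Of the 4 layer 6b markers, only 1 was higher in barcode-high L6-Npy neurons when libraries were pooled. The list summed to 157 to 220 CPM in barcode-high and 46.1 to 96.4 CPM in barcode-zero neurons, almost wholly through Nr4a2 (156 to 220 against 46.1 to 93.3 CPM). Cplx3 (at most 1.5 CPM in either group) was higher in 2 of 4 libraries and Ctgf (at most 2.33 CPM) in 1, while Nxph4 was at 0 in both groups. The long-range interneuron markers summed to 111 to 243 against 162 to 314 CPM, with 1 of 4 higher in barcode-high neurons. Their part in the Nos1 difference was not tested. Inhibitory markers summed to at most 4.81 CPM in either group.

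The barcode differences of L5-S100b and L6-Npy were tested against each other in 1 model. For Nos1 they differed by 0.93 on the log2 scale (SE 0.16, edgeR adjusted p = 0.000196), in a test where 1.13% of 11047 genes were called. Nos1 was the 1 member of 5 called. The value lay between 0.78 and 1.15 when any 1 library was left out, with adjusted p-values of 5.98e-05 to 0.00779. Against L2/3-Rorb, the Nos1 difference was 0.50 for L5-S100b (SE 0.223, edgeR adjusted p = 0.411, beside 0.679% of genes called) and -0.44 for L6-Npy (SE 0.21, edgeR adjusted p = 0.749, beside 0.0453%), neither called. These tests share each subtype's neurons. L6-Syt6 was not entered, since its contrast chose the gene.

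**Figure D3:**
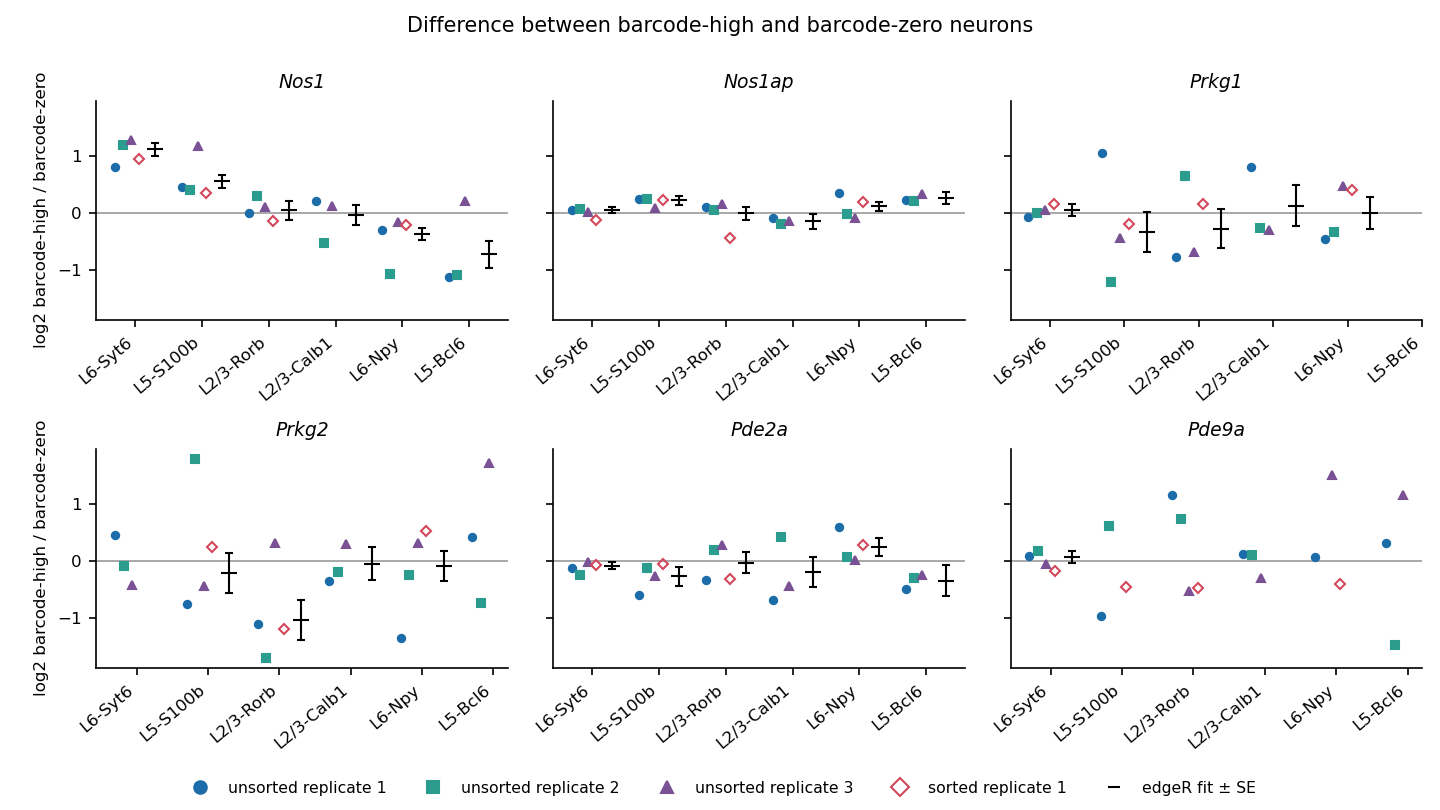
Log2 ratio of CPM in barcode-high over barcode-zero neurons (vertical axis) for each gene in 6 subtypes (horizontal axis), with 1 symbol per library and the edgeR estimate ± SE in black where the gene could be fitted; a library with 0 UMIs in either group has no symbol. Nos1 runs from 1.11 in L6-Syt6 and 0.55 in L5-S100b to -0.38 in L6-Npy and -0.73 in L5-Bcl6, while Nos1ap stays between -0.15 and 0.25 in all 6.

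No member was called by edgeR or DESeq2 in the other 3 subtypes. In L2/3-Rorb, Nos1 measured 33.9, 30.8, 35.9 and 61.3 CPM in barcode-high against 34.1, 25.0, 33.6 and 67.9 CPM in barcode-zero neurons (log2 fold change 0.04, SE 0.164, edgeR adjusted p = 0.984). Prkg2 gave 4.94, 4.84, 5.73 and 7.19 against 10.6, 15.8, 4.58 and 16.4 CPM there, lower in 3 of 4 libraries (-1.03, SE 0.35, edgeR adjusted p = 0.324), from 3 to 12 UMIs per library in the barcode-zero group. It was the 1 member of 5 with an unadjusted p under 0.05, a limit that 681 of 10038 genes met. Of all genes 0.139% were called. In L2/3-Calb1, with 3 libraries, the Nos1 change was -0.04 (SE 0.169). There 0 of 5 members had an unadjusted p under 0.05, beside 473 of 8340 genes, and 0.18% of genes were called.

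L5-Bcl6 had 19 to 22 barcode-zero neurons in each of 3 unsorted libraries. Nos1 measured 34.5 against 75.2, 25.6 against 55.0 and 40.1 against 34.8 CPM, so replicate 3 went the other way. The estimate was -0.73 on the log2 scale (SE 0.242, edgeR adjusted p = 0.591), and without replicate 3 it was -1.11 (adjusted p = 0.012, called). Nos1ap was higher in 3 of 3 libraries there (0.25, SE 0.105, edgeR adjusted p = 0.722). These were the 2 of 3 members tested with an unadjusted p under 0.05, a limit that 579 of 8752 genes met. Of all genes 0.0686% were called.

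Of the wider list, 0 genes were called by edgeR or DESeq2 in L2/3-Calb1 (24 tested), L2/3-Rorb (30), L5-Bcl6 (29) and L6-Npy (33), with 2, 4, 5 and 6 at an unadjusted p under 0.05. Among all genes tested, 473 of 8340, 681 of 10038, 579 of 8752 and 1096 of 10365 met that limit in the same order. The median log2 fold change of the list lay between -0.02 and 0.05 in these subtypes and in L5-S100b, against -0.01 to 0.0 over all genes tested.

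Inhibitory cells held more Nos1 than excitatory neurons as a class. In unsorted replicates 1, 2 and 3 it measured 103, 141 and 116 CPM in 443, 453 and 382 inhibitory cells, against 26.6, 25.3 and 27.4 CPM in excitatory neurons, of which L6-Syt6 was 4319 of 7765. The change was 2.08 on the log2 scale (SE 0.0617, edgeR adjusted p = 6.95e-29). Nos1ap was lower in inhibitory cells, at 65.0, 66.4 and 62.9 against 209, 219 and 208 CPM (-1.81, SE 0.0386, adjusted p = 4.79e-34). Of the 6 members 4 were called, 2 higher and 2 lower, beside 40.4% of 15266 genes (20.6% higher and 19.7% lower). A call is therefore common here, and the excitatory neurons had been selected by the study's clustering on the variable genes of these cells.

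The kinases moved in opposite directions between the classes. Prkg1 measured 3.61, 3.67 and 3.76 CPM in inhibitory cells against 6.93, 6.86 and 6.18 (log2 fold change -0.96, SE 0.168, edgeR adjusted p = 3.19e-06). Prkg2 measured 7.84, 8.55 and 7.18 against 4.35, 3.81 and 4.40 CPM (0.81, SE 0.154, edgeR adjusted p = 1.36e-05), and with cells thinned to 5000 UMIs it was 0.42 (adjusted p = 0.219). Pde2a (-0.20, adjusted p = 0.0101) and Pde9a (0.38, adjusted p = 0.0311) passed on p but not on size. Inhibitory cells were shallower, with medians of 13277 to 14101 UMIs.

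The inhibitory Nos1 came from very few cells. Of 1278 inhibitory cells of the unsorted libraries, 21 (1.64%) had 20 or more Nos1 UMIs, 5, 10 and 6 of them in replicates 1, 2 and 3, and these held 79.4% of the 2257 Nos1 UMIs. They had 35 to 162 Nos1 UMIs each, with a median of 84, while the other 1257 cells had at most 10 and 79.5% of them had none. The limit of 20 was set after the counts had been seen, and no cell lay between 10 and 35 UMIs. Among all excitatory neurons the highest count was 39, and 16 neurons reached 20, of which 13 were L5-S100b neurons of the sorted library.

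**Figure D4:**
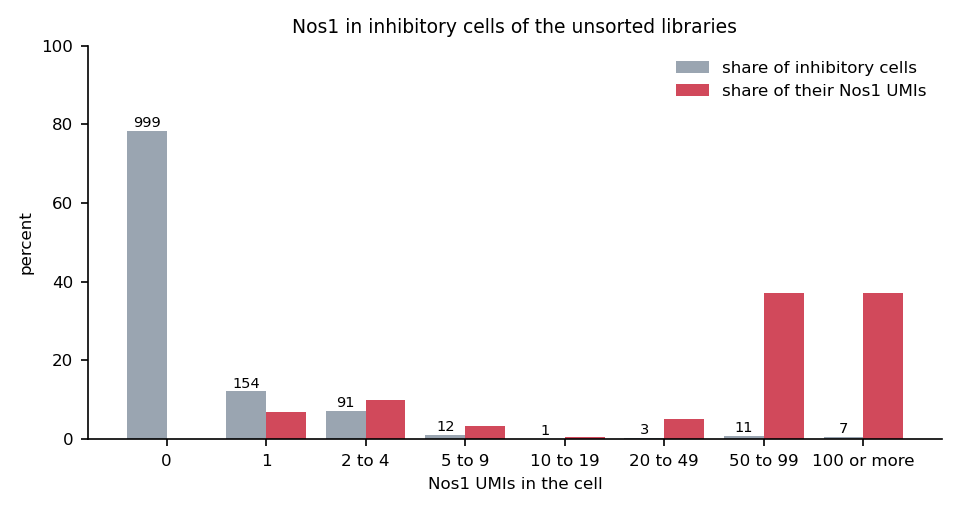
Share in percent (vertical axis) of the 1278 unsorted inhibitory cells, with their number above each grey bar, and of their 2257 Nos1 UMIs, in red, by Nos1 UMIs in the cell (horizontal axis). The 18 cells with 50 UMIs or more hold most of the Nos1 UMIs, while 999 cells hold none.

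The 21 cells shared a marker profile that the limit had not used. Sst, Npy and Chodl, the last a marker of long-range somatostatin cells, were detected in 21 of 21, and Tacr1, the substance P receptor, in 20. In the other inhibitory cells Chodl was detected in 11 of 1257 and Tacr1 in 18. Adarb2, Vip and Pvalb, markers of other inhibitory classes, were at 0 in all 21 cells. Gucy1a1 was detected in 21 of 21 against 17.9% of the rest, and summed to 183 against 21.6 CPM. Prkg1 was detected in 1 of the 21 (4.76%) against 4.85% of the rest, and Pde2a in 7 (33.3%) against 27.8%. None of the 21 was barcode-high, and 1 had any barcode UMI. They were deeper than the rest, with medians of 22566 and 13488 UMIs. These are counts from 3 libraries, given without a test.

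Without inhibitory cells holding a Chodl UMI, Nos1 in the inhibitory class no longer exceeded that in excitatory neurons. It measured 24.3, 22.3 and 30.2 CPM in the 1246 cells left, a log2 difference of -0.16 (SE 0.0749, edgeR adjusted p = 0.0619), an alternative added after the data had been seen. Nos1ap (64.9 ± 1.35 CPM), Prkg2 (7.62 ± 0.673) and Pde9a (6.70 ± 1.25) measured about the same without those cells.

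Inhibitory cells with Lhx6 and no Adarb2, the parvalbumin and somatostatin lineages, were set against those with Adarb2 and no Lhx6, which include the Vip cells. Nos1 measured 213, 306 and 229 CPM in 148, 143 and 130 Lhx6 cells, against 21.5, 20.5 and 34.4 in 272, 289 and 234 Adarb2 cells (log2 fold change 3.31, SE 0.116, edgeR adjusted p = 1.32e-18). Of 11515 genes 21% were called, 10.0% higher in Lhx6 cells and 11% lower. Of the members, 5 of 6 were called, each higher in Lhx6 cells. Without cells holding a Chodl UMI the Nos1 value was -0.05 (SE 0.161, adjusted p = 0.851), so the difference rested on those few cells.

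The differences of both kinases did not rest on the Chodl cells, with values of 4.04 for Prkg2 and 3.33 for Prkg1 without them. Prkg2 measured 17.1, 20.6 and 13.5 against 0.589, 0.547 and 1.91 CPM (log2 fold change 4.07, SE 0.363, edgeR adjusted p = 5.52e-10). Prkg1 measured 6.70, 7.24 and 7.77 against 0.884, 0.547 and 0.637 CPM (3.32, SE 0.474, edgeR adjusted p = 2.24e-06), the Adarb2 values resting on 7 UMIs. In both, the lowest Lhx6 library lay above the highest Adarb2 library by several times the spread. Nos1ap followed with 85.3, 93.0 and 79.0 against 48.6, 47.0 and 48.4 CPM (0.84, adjusted p = 2.19e-08). Pde2a gave 31.3, 29.7 and 35.2 against 22.1, 24.6 and 17.2 CPM (0.58, adjusted p = 0.00248), and lost its call without unsorted replicate 3 (0.38, adjusted p = 0.0717), in DESeq2 (adjusted p = 0.215) and with thinning (0.06, adjusted p = 0.902). Pde9a did not pass (0.15, SE 0.283, adjusted p = 0.733).

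The wider list split both ways in these comparisons, with medians of -0.06 and -0.02 on the log2 scale against -0.01 and 0.0 over all genes. Between inhibitory and excitatory cells 14 of 47 genes tested rose and 14 fell (59.6% called), beside 20.6% of all genes higher and 19.7% lower. Higher in inhibitory cells were the phosphodiesterases Pde11a (log2 fold change 5.86), Pde5a (5.47) and Pde1c (3.21), and also Pde3a, at 4.81 ± 0.735 against 0.0465 ± 0.0376 CPM. Sntb1, a syntrophin (2.86), and Nostrin (2.50) were higher as well. Lower were Npr3 (-2.34) and Arg2 (-3.15). Between Lhx6 and Adarb2 cells 7 of 39 rose and 8 fell (38.5% called), beside 10.0% of all genes higher and 11% lower. Pde5a, which is specific for cGMP, measured 7.70 ± 7.52 CPM in Lhx6 and 86.3 ± 6.03 CPM in Adarb2 cells (-3.46, edgeR adjusted p = 1.6e-13), the reverse of the kinases, and Pde11a also went that way (-4.26, edgeR adjusted p = 3.99e-12). Nppc, the C-type natriuretic peptide, was higher in Lhx6 cells (2.44, edgeR adjusted p = 5.74e-14).

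Outside neurons each member except Nos1 and Nos1ap had its own class. Cells were placed in a class when the summed markers of that class reached 10 UMIs and no other class did, and classes are compared as descriptions. Prkg1 measured 45.0, 40.9 and 42.1 CPM in mural cells, above every excitatory subtype of the unsorted libraries. Prkg2 measured 86.1, 80.9 and 78.4 CPM in oligodendrocyte precursors, again above every subtype, and Prkg1 there reached 15.9, 16.5 and 23.1 CPM. Pde2a was highest in endothelial cells (83.4, 87.2 and 79.8 CPM), and Pde9a in astrocytes (37.9, 41.4 and 34.8 CPM). In astrocytes Prkg1 and Pde2a had 0 UMIs in 460 cells.

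**Figure D5:**
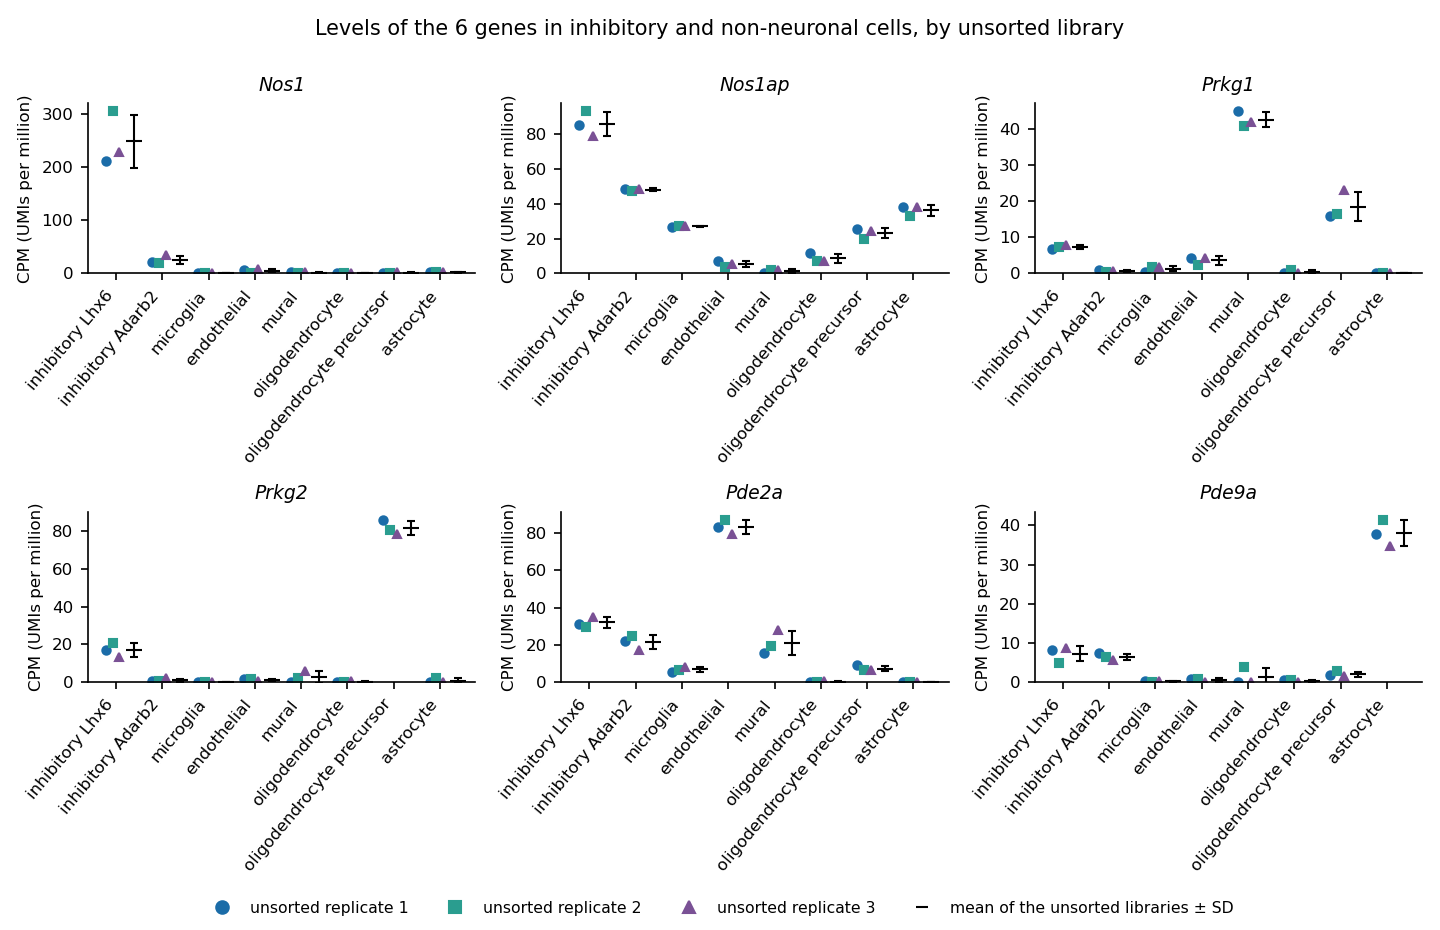
CPM of each gene (vertical axis, own scale per panel) in inhibitory cells with Lhx6 or Adarb2 and in 6 non-neuronal classes (horizontal axis), with 1 symbol per unsorted library and the mean ± SD in black. The tallest values are Nos1 in Lhx6 cells (213 to 306 CPM), Prkg1 in mural cells (40.9 to 45.0), Prkg2 in oligodendrocyte precursors (78.4 to 86.1), Pde2a in endothelial cells (79.8 to 87.2) and Pde9a in astrocytes (34.8 to 41.4).

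Nos1 was near background in glia, with 0.69 to 1.23 CPM in microglia and 0.515 to 1.52 in oligodendrocytes, and was somewhat higher in endothelial cells (7.01, 1.54 and 8.13 CPM from 23 UMIs). Nos1ap was detected beyond neurons, at 36.3 ± 3.15 CPM in astrocytes, 27.0 ± 0.265 in microglia and 23.2 ± 3.01 in oligodendrocyte precursors, and at 1.32 ± 1.14 in mural cells. These levels lay below the lowest excitatory subtype (80.6 ± 5.63 CPM in L2/3-Rorb). Non-neuronal cells were shallow, with class medians of 2421 to 4499 UMIs over the unsorted libraries.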

How the data were processed

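Per the labels and the study's methods, the authors made the deposited UMI counts with Cell Ranger 3.0.2 from 10x 3' v3 libraries and the mm10 reference with the viral barcodes added. The matrices hold raw counts per gene and cell. The pooled barcode feature was taken to sum all 5 viruses. The study's methods were matched for cell limits (500 to 8000 genes, 1000 to 60000 UMIs, under 20% mitochondrial). Excitatory subtypes are the authors' own. No doublet caller was run. For each library the UMIs of a cell group were added up, and edgeR 4.0.16 in R 4.3.3 was run on these sums (quasi-likelihood F test, TMM, filterByExpr), with the library as a block since both groups of a comparison come from it. DESeq2 1.42.0 was an alternative. A library entered when both groups had at least 10 cells, and a comparison needed 3 libraries. Adjusted p-values (Benjamini-Hochberg) run over all genes tested. The fit was tested on simulated data with 200 changed genes. p-values measure the spread between libraries, each 1 mouse or, for the sorted one, a pool. Intervals and floors would cover counting error only, and none is printed.

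The members, the 57-gene list of the pathway, the markers, the barcode limit and the comparisons were chosen with earlier results of these data known. Named were the members, up to 8 called genes of the list with the largest change per comparison, and the genes most like each member. The cyclase subunits (Gucy1a1, Gucy1a2, Gucy1b1) were named in addition for their levels, after their values had been seen. Alternatives were DESeq2, no filter, no block, each library left out, another barcode limit, neurons without Gad1 or Gad2, stricter inhibitory gates and thinning. One marker was left out of each of the excitatory and inhibitory lists and is not reported here.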

Additional observations from a re-analysis of the deposited data

Results flagged for a closer look

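The Nos1 difference between barcode-high and barcode-zero neurons differed between L5-S100b and L6-Npy by 0.93 on the log2 scale (SE 0.16, edgeR adjusted p = 0.000196 for the interaction). It was chosen for a closer look because the effects of the same contrast differed between these subtypes by a test of the difference itself. Nos1 was higher in barcode-high L5-S100b neurons in 4 of 4 libraries and lower in barcode-high L6-Npy neurons in 4 of 4 libraries. Of the layer 6b markers, Nr4a2 was higher in barcode-high L6-Npy neurons in 4 of 4 libraries, Cplx3 in 2, Ctgf in 1 and Nxph4 in 0. The part of these markers in the difference was not tested. Barcode-high neurons were deeper in both subtypes. With neurons thinned to 10000 UMIs the Nos1 change was 0.95 in L5-S100b and -0.55 in L6-Npy. The difference between the subtypes was not fitted after thinning.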

How the results depend on the processing

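Both groups of a comparison come from the same library, which was the block. Without the replicate block, the count of members called in L5-S100b went from 1 to 0 (Nos1 0.58, adjusted p = 0.768). No other count of members within a tested subtype or between cell classes changed. The differences between subtypes were not fitted without the block. The L5-S100b count was also 0 with 1 or more barcode UMIs and ran from 0 to 1 when a library was left out (0 without unsorted replicate 3). In L6-Npy the count went from 0 to 1 with thinning to 10000 UMIs and ran from 0 to 1 when a library was left out (1 without the sorted library). In L5-Bcl6 it ran from 0 to 1 (1 without unsorted replicate 3). In Lhx6 against Adarb2 cells it went from 5 to 3 with thinning to 5000 UMIs, and thinning lowers counts and so the number of genes tested. The other causes were not tested. Nos1 changed sign in L2/3-Calb1 (0.12 with 1 or more barcode UMIs, 0.08 thinned, 0.16 without unsorted replicate 2) and in L2/3-Rorb (-0.02 without unsorted replicate 2), where it was not called in any setting. It also changed sign without Chodl cells in the inhibitory (-0.16) and Lhx6 (-0.05) comparisons, a setting added after the data had been seen. In all, 78 of 85 counts of members called under an alternative stayed the same or nearly so, 4 were lower and 3 higher. Of 158 other values, which include the log2 fold changes of members, 142 stayed the same or nearly so. Of the others 7 were weaker, 3 stronger and 6 reversed. The number of all genes called depended more on the setting: 310 (56 to 355 over the alternatives) in L5-S100b, 83 (0 to 115) in L6-Npy, 218 (27 to 309) in L6-Syt6, 14 (0 to 33) in L2/3-Rorb, 15 (2 to 32) in L2/3-Calb1 and 6 (0 to 31) in L5-Bcl6. It was 2423 (1481 to 2768) for Lhx6 against Adarb2 cells, 125 (74 to 158) for L5-S100b minus L6-Npy, and 75 (30 to 100) and 5 (0 to 23) for these subtypes minus L2/3-Rorb.

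The barcode count was taken to pool 5 targets, so no value is assigned to 1 target. The sorted group is 1 library. Prkg2 in L6-Syt6, Prkg1 in L5-Bcl6 and Pde9a in most subtypes had too few UMIs for differences to be detectable at this depth.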
